A study of Mus musculus with 6 samples.

Results

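Leukaemic pro-B cells without the fourth zinc finger of Ikaros were compared with wild type cells of the same kind. The comparison rests on 4 of the 6 libraries of the study, which were chosen by their labels: wild type and the ZnF4 mutant (Ikaros_ZnF4-/-), each at day 21 and day 28 of culture. The other 2 libraries come from a mutant of the first finger (Ikaros_ZnF1-/-) at the same days. They share the estimate of the spread and serve as a second reference. All 3 genotypes are of the C57BL/6 strain, and all cells, wild type included, had been transformed by transducing whole bone marrow at day 0 with a retrovirus for BCR-ABL p185 and YFP. Each genotype and day is 1 library, so n = 2 per genotype. The labels name no cell sort, no age of the mice and no number of cultures, and a feature of 1 culture cannot be told apart from its genotype.

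Ikaros, encoded by Ikzf1, is a zinc finger transcription factor that directs lymphocyte development and restrains BCR-ABL leukaemia. Its N-terminal fingers bind DNA around the core GGGAA. The central fingers of this group make the core contact, whereas the outer fingers, the first and the fourth, adjust which sites are bound. In B cell development Ikaros is known for silencing progenitor genes and for activating genes of the pre-B cell stage, when the pre-B cell receptor (surrogate light chain, heavy chain and Cd79 signalling chains) is tested.

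The cells carried pro-B markers in every library. The summed level of the 15 markers of that list was 3200.6 and 2944.3 in wild type and 3328.2 and 2983.1 in the ZnF4 mutant, in RPKM (reads per kilobase of transcript, scaled to the reads of the library). Ikzf1 itself had wild type values of 89.2 and 78.7 and ZnF4 values of 186 and 165.9 RPKM. Both mutant libraries lay above both wild type libraries, with a difference of 1.06 ± 0.07 on the log2(RPKM + 1) scale (standard error, adjusted p = 0.00129). Values over whole transcripts cannot check the loss of 1 finger. The related Ikzf3 (Aiolos) had wild type values of 72.4 and 77.2 and ZnF4 values of 52.8 and 51.7 RPKM, and fell (-0.51 ± 0.08, adjusted p = 0.0141). That call was lost when any 1 of the 4 libraries was dropped (adjusted p up to 0.162).

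Of 11379 genes tested with limma, 2076 were called at an adjusted p below 0.05, which is 18.2%. Called genes were higher in 1243 cases (10.9%) and lower in 833 cases (7.32%). Most differences were small: 364 of the higher and 256 of the lower genes reached 2-fold, and 96 and 50 reached 4-fold. Taken by fold alone, 290 genes (2.55%) were raised 2-fold on both days and 203 genes (1.78%) lowered 2-fold. Neither wild type library reached 1 RPKM for 106 of the higher genes, nor either ZnF4 library for 50 of the lower genes, so these passed the filter through the libraries where they are high. Both ZnF4 libraries lay above both wild type libraries in 3511 of the 11379 tested genes and below them in 2798. A lack of overlap, where it is named for a gene, is thus common among all genes. All differences below are ZnF4 mutant minus wild type on the log2(RPKM + 1) scale with the standard error. With so few libraries the calls are sensitive to each of them, as 346 to 634 genes were called without any 1 of these 4 libraries and 1222 or 1230 without 1 ZnF1 library. Where a gene selected by the naming rule lost its call with 1 library left out, this is said beside it. Genes chosen after their values were seen were not followed in this way. Calls lost in the other alternatives, such as without the filter on low values, are mostly not given gene by gene.

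**Figure D1:**
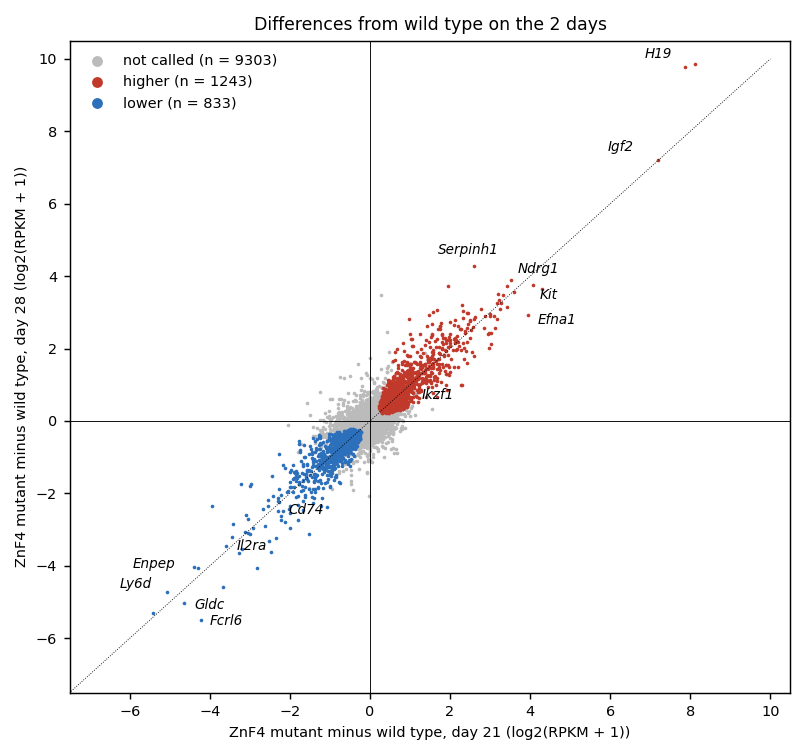
Difference of each tested gene between the ZnF4 mutant and wild type at day 21 (horizontal) and day 28 (vertical), in log2(RPKM + 1). Each point is a gene, coloured by its call, and the dotted line marks equal differences. The called genes lie along that line in both directions, with Mir675, H19 and Igf2 farthest up and Ly6d, Gldc and Fcrl6 among those farthest down.

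The largest rises were in the imprinted growth locus of chromosome 7. H19, a long non-coding RNA, had wild type values of 12.2 and 1.3 and ZnF4 values of 3062.2 and 2008.3 RPKM. Igf2, its neighbour, which encodes a fetal growth factor, had wild type values of 0.7 and 0.2 and ZnF4 values of 247.2 and 175.2 RPKM. Both genes were low in wild type, and H19 had the highest RPKM of all tested genes in each ZnF4 library. Igf2 rose by 7.19 ± 0.14, adjusted p = 0.000288 and held its call in every alternative. H19 rose by 8.81 ± 0.69, adjusted p = 0.00194, which did not stay called with either ZnF4 library left out (adjusted p up to 0.0648). Mir675, whose hairpin lies inside H19, had wild type values of 8.7 and 0.7 and ZnF4 values of 2676 and 1575.9 RPKM (8.98 ± 0.56, adjusted p = 0.00117; 0.0534 without the day 28 ZnF4 library). Reads of H19 and of the hairpin cannot be told apart, and the mature miRNAs cut from it were not measured by poly(A) RNA. Igf2as, an antisense RNA over Igf2, was listed at 0 in wild type and had 9.7 and 7.9 RPKM in the mutant. Without strand its reads cannot be told apart from those of Igf2. The mature products of the hairpin are shown because the hairpin led the list of rises. Capitals mark the seed, bases 2 to 8, and both are on the minus strand of chromosome 7 (RefSeq, GRCm38.p6), at chr7:142577112-142577133 for the 5p and chr7:142577078-142577099 for the 3p product.
mmu-miR-675-5p: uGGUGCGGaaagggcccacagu
mmu-miR-675-3p: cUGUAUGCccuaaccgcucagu

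The genes next to H19 on the side away from Igf2 rose too. In gene order Tnni2, Lsp1, H19, Mir675 and Igf2 form a run in which each was 2-fold higher on both days. Tnni2, a troponin subunit of fast muscle, had wild type values of 4.4 and 5.7 and ZnF4 values of 42.7 and 35.4 RPKM (2.73 ± 0.18, adjusted p = 0.00129). Lsp1, a leukocyte actin-binding protein, had wild type values of 99.2 and 124.3 and ZnF4 values of 299.9 and 289.8 RPKM (1.40 ± 0.11, adjusted p = 0.00196; Lsp1 was chosen after its values were seen). The next tested gene on the far side of Tnni2, Ctsd, was not called (-0.35 ± 0.20, adjusted p = 0.289), nor was Tspan32 beyond Igf2 (-0.11 ± 0.10, adjusted p = 0.508), and both were chosen for their place. Farther beyond Tspan32, Tssc4 (0.32 ± 0.07) and Cars (0.75 ± 0.10) were called higher and Tnfrsf26 lower, chosen after their values were seen. Only 5 runs of 3 or more tested neighbours moved 2-fold the same way on both days, among 10143 tested genes with a place. The others were Hoxb8 to Hoxb5 and Ralgps2, Rasal2 and 2810025M15Rik, which were higher, and Gbp5, Gbp7, Gbp3 and Gbp2 and Scn4b, Tmprss4 and BC049352, which were lower.

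In the insulin-like growth factor axis 4 of 15 tested members rose, Igf2 included (26.7% against 10.9% of all genes), and 3 fell (20% against 7.32%), with 2 to 4 higher and 2 to 3 lower when any 1 of the 6 libraries was dropped. Igf1r, the receptor for both factors, had wild type values of 2.1 and 0.4 and ZnF4 values of 9 and 7.2 RPKM (2.12 ± 0.21, adjusted p = 0.0036; 0.0556 without the day 28 ZnF4 library). Grb10, an imprinted adaptor that restrains these receptors, had wild type values of 2.6 and 2 and ZnF4 values of 30.5 and 16.8 RPKM (2.85 ± 0.15, adjusted p = 0.000847). All mutant values of these genes exceeded all wild type values. Igf1, the sister factor, went the other way, from 13.1 and 15.8 RPKM in wild type to 2.5 and 2.3 RPKM in the mutant (-2.18 ± 0.13, adjusted p = 0.00114). Irs2, a receptor substrate, fell by a smaller amount (-1.15 ± 0.08, adjusted p = 0.00155). Igf2r, which takes up Igf2 for degradation, had wild type values of 16.7 and 19.1 and ZnF4 values of 8.6 and 10.3 RPKM (-0.86 ± 0.11, adjusted p = 0.00774), and its call was lost when any 1 of the 4 libraries was dropped (adjusted p up to 0.109). Igf1 is also made by macrophages, whose markers were lower in the mutant too (values below), and their part in the result was not tested. Of the 21 matched members of the axis 6 were too low to be tested. Igf2 passed the filter through mutant libraries, where it is high, so the share that rose depends on the filter. Without the filter 3 of 21 members were called higher and 3 lower.

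Kit, Lmo1 and Lhx2, known from earlier progenitors, were near 0 in wild type and clearly present in the mutant. Kit, the receptor for stem cell factor, had wild type values of 0.1 and 0 and ZnF4 values of 17.4 and 12.5 RPKM. Wild type was at most 0.1 RPKM and did not overlap the mutant (3.91 ± 0.11, adjusted p = 0.000537). Lmo1, a LIM-only factor known as a T cell leukaemia oncogene, was listed at 0 on both wild type days, with 9.7 and 12.3 RPKM in the mutant (adjusted p = 0.000713). Lhx2, a LIM homeobox gene of stem and progenitor cells, had wild type values of 0.3 and 0.3 and ZnF4 values of 11 and 13.8 RPKM (3.36 ± 0.14, adjusted p = 0.000537). The calls of Kit, Lmo1 and Lhx2 held in every alternative. Of the 24 matched stem and early progenitor genes 8 were too low to be tested. Kit, Lmo1 and Lhx2 passed the filter through mutant libraries, where they are high, so the share that rose depends on the filter. Of the 16 tested 5 rose (31.2% against 10.9% of all genes) and 2 fell (12.5% against 7.32%), with a median of -0.01. Fewer were higher with any 1 library left out. Mycn, a progenitor-stage Myc gene, was among those that fell, from 28.8 and 41.6 RPKM in wild type to 9.2 and 15.3 RPKM in the mutant (-1.47 ± 0.09, adjusted p = 0.00114).

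Homeobox genes of the Hoxb cluster rose together. Hoxb7 was listed at 0 on both wild type days, with 18.6 and 11.4 RPKM in the mutant (adjusted p = 0.000713). Hoxb8, likewise listed at 0 in wild type, had 7.5 and 6.4 RPKM (adjusted p = 0.000691). Hoxb6 had wild type values of 0.1 and 0 and ZnF4 values of 4.9 and 4.9 RPKM (2.49 ± 0.14, adjusted p = 0.000968). Each was higher in both mutant libraries than in either wild type library. Hoxb5, listed at 0 in wild type with 1.6 and 1.9 RPKM in the mutant, and Hoxb3 (0.86 ± 0.10) also rose and Hoxb4 between them was not called (0.23 ± 0.11, adjusted p = 0.229), all chosen after their values were seen. Pbx3, which encodes a DNA-binding partner of Hox proteins, had wild type values of 0.6 and 0.3 and ZnF4 values of 4.7 and 4.7 RPKM (1.98 ± 0.14, adjusted p = 0.00143). Of the 27 matched Hox genes and cofactors 16 were too low to be tested. Among the other 11, 6 were called higher and 0 lower, and 4 to 6 were higher with any 1 of the 6 libraries left out. Hoxb5 to Hoxb8 passed the filter through mutant libraries, where they are high, so a share or median of the tested members is fixed by the filter. Without the filter the median over 25 members was 0, and at a mean RPKM of at least 4 there were 2 members, 1 of them higher.

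Other genes with large rises had various roles. Ndrg1, a stress and hypoxia response gene, had wild type values of 3.1 and 2 and ZnF4 values of 45.8 and 43.6 RPKM (3.70 ± 0.15, adjusted p = 0.000537). Prdm8, a chromatin factor of the PRDM family, had wild type values of 0.1 and 0.1 and ZnF4 values of 12.4 and 12 RPKM (3.58 ± 0.14, adjusted p = 0.000537). Dock1, an activator of the small GTPase Rac, had wild type values of 0.5 and 0.3 and ZnF4 values of 12.4 and 11.5 RPKM (3.21 ± 0.09, adjusted p = 0.000537). In each of these the mutant lay far above wild type on both days. Ptk2, the focal adhesion kinase gene, had wild type values of 1.3 and 1.3 and ZnF4 values of 15.7 and 16 RPKM (2.87 ± 0.13, adjusted p = 0.000691). Aqp1, a water channel, had wild type values of 0.6 and 0.2 and ZnF4 values of 15 and 12.5 RPKM (3.41 ± 0.11, adjusted p = 0.000537). Hip1, a clathrin adaptor, had wild type values of 1.6 and 1.1 and ZnF4 values of 23.3 and 20.4 RPKM (3.29 ± 0.09, adjusted p = 0.000537). These 6 calls held in every alternative, as did those of the lipid phosphodiesterase-like gene Smpdl3b (3.25 ± 0.13), the ion pump regulator Fxyd6 (3.01 ± 0.11), the collagen chain Col6a6 (2.97 ± 0.09), the tachykinin gene Tac4 (2.95 ± 0.16) and the small GTPase Rhoj (2.94 ± 0.11). Kcnma1, a potassium channel gene, was listed at 0 in wild type and had 8.5 and 7.5 RPKM in the mutant (adjusted p = 0.000537). Serpinh1, the collagen chaperone, differed between days: wild type values of 3.4 and 2.1 and ZnF4 values of 25.6 and 58.8 RPKM (3.43 ± 0.39, adjusted p = 0.00533; 0.0663 without the day 28 wild type library). The chemokine gene Ccl2 had wild type values of 11 and 7 and ZnF4 values of 45.4 and 104.9 RPKM (2.84 ± 0.43, adjusted p = 0.0122), and its call was lost with either wild type library dropped (adjusted p up to 0.134).

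**Figure D2:**
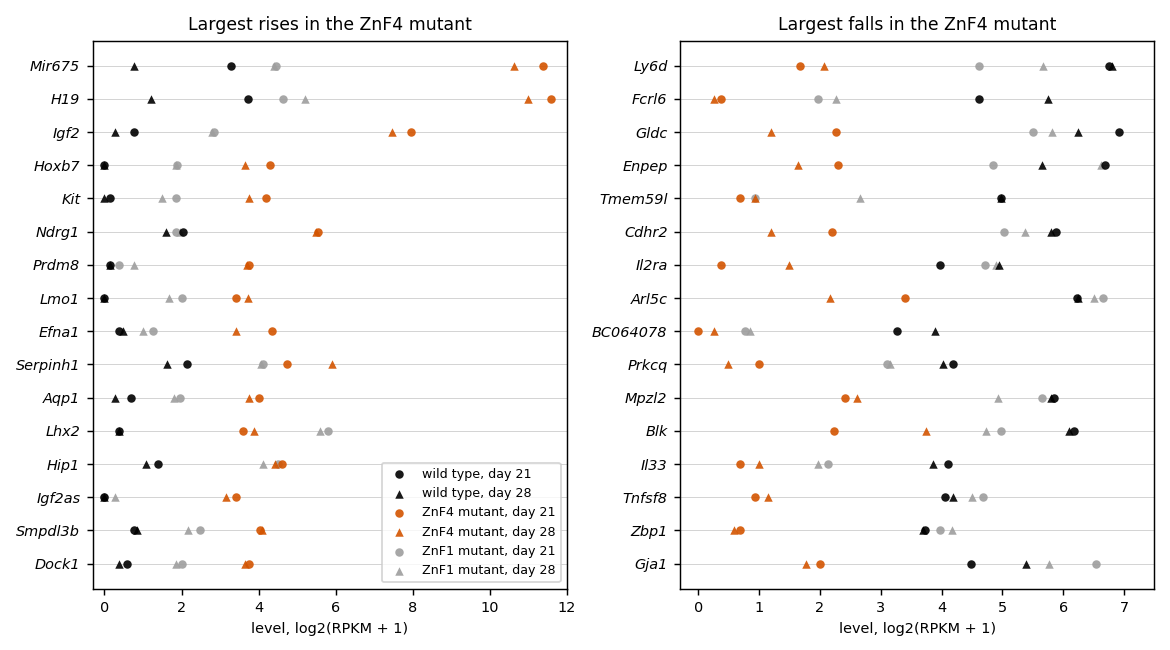
Level of the 16 genes with the largest rises (left) and of 16 genes among the largest falls (right) in each library, as log2(RPKM + 1). Black marks wild type, orange the ZnF4 mutant and grey the ZnF1 mutant, with circles for day 21 and triangles for day 28. Black and orange do not overlap in any of these genes, which were picked as called and 2-fold apart on both days. Among all 11379 tested genes 3511 were higher and 2798 lower without overlap. The grey points often lie between black and orange.

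Genes with large falls also had various roles. Ly6d, a surface marker of B-lineage specified progenitors, had wild type values of 107.2 and 110.1 and ZnF4 values of 2.2 and 3.2 RPKM (-4.90 ± 0.23, adjusted p = 0.000724). Fcrl6, an Fc receptor-like gene, had wild type values of 23.4 and 52.7 and ZnF4 values of 0.3 and 0.2 RPKM (-4.86 ± 0.29, adjusted p = 0.00114). These genes went from a clear level to a few RPKM or less. Gldc, the glycine decarboxylase of the glycine cleavage system, had wild type values of 119.7 and 74.4 and ZnF4 values of 3.8 and 1.3 RPKM (-4.84 ± 0.32, adjusted p = 0.0013). Il2ra (CD25), a receptor subunit that marks pre-B cells, had wild type values of 14.7 and 29.8 and ZnF4 values of 0.3 and 1.8 RPKM (-3.53 ± 0.23, adjusted p = 0.00129). Prkcq, a lymphocyte protein kinase C, had wild type values of 17.3 and 15.3 and ZnF4 values of 1 and 0.4 RPKM (-3.37 ± 0.15, adjusted p = 0.000691). These 5 calls held in every alternative, and no mutant value reached a wild type value. Enpep, which encodes the BP-1 antigen of pre-B cells, had wild type values of 102.4 and 49.3 and ZnF4 values of 3.9 and 2.1 RPKM (-4.21 ± 0.67, adjusted p = 0.0142), but its call was lost when any 1 of the 4 libraries was dropped (adjusted p up to 0.155). The cytokine genes Il33 (-3.15 ± 0.16) and Tnfsf8, the CD30 ligand (-3.09 ± 0.12), fell with calls that held in every alternative, as did the nucleic acid sensor Zbp1 (-3.08 ± 0.11), the sodium channel subunit Scn4b (-3.05 ± 0.10), the homeobox gene Dlx1 (-2.85 ± 0.15), the scaffold gene Magi1 (-2.77 ± 0.14), the focal adhesion gene Tes (-2.56 ± 0.09), and Tnfrsf26 (-2.88 ± 0.13), Mpzl2 (-3.32 ± 0.22) and Sytl2 (-2.94 ± 0.15). Calls were lost for Cdhr2 (-4.14 ± 0.31), Arl5c (-3.45 ± 0.30) and Dpp4 (-2.92 ± 0.25) without the day 28 wild type library (adjusted p = 0.0502, 0.0538 and 0.0569). Those of Tmem59l (-4.18 ± 0.42) without the day 21 wild type library or either ZnF4 library, and of Gja1 (-3.05 ± 0.38) without either ZnF4 library, were lost too (adjusted p up to 0.0804 and 0.11).

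The letters TGGGAA, the core GGGAA with a leading T, were searched on both strands in RefSeq promoter windows of 300 bases, from 250 before to 50 after a start. They were in 23.1% of the 10286 windows of all tested genes, in 29.8% of the 272 windows of genes 2-fold higher on both days and in 32.5% of the 209 windows of genes 2-fold lower. The core GGGAA alone was in 64.6%, 73.5% and 69.9%. Higher and lower genes thus held these letters in similar shares, and every TGGGAA match is also a GGGAA match. A match describes letters in a window and is no binding site. The stretches below show such matches, in capitals, in 3 genes that rose and 2 that fell. They were chosen after their values were seen and are written 5′ to 3′ on the strand of the gene (RefSeq, GRCm38.p6). The positions are chr7:142666832-142666889 (minus strand) for Igf2, chr7:109175335-109175392 (minus) for Lmo1, chr6:55336138-55336195 (plus) for Aqp1, chr19:29945635-29945692 (plus) for Il33 and chr19:30175481-30175538 (minus) for Gldc.
Igf2: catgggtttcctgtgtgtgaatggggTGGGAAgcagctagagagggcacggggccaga
Lmo1: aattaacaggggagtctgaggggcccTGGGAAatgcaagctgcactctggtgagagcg
Aqp1: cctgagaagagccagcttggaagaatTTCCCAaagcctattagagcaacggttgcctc
Il33: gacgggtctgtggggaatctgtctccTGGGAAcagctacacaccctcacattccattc
Gldc: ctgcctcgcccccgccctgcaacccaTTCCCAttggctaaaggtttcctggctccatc

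Genes of B cell identity moved in both directions. Of the 15 pro-B markers 4 rose (26.7% against 10.9% of all genes) and 3 fell (20% against 7.32%), with a median of -0.07. Fewer were called in each direction with any 1 of the 6 libraries left out. Among the others, Pax5 (0.11 ± 0.09, adjusted p = 0.428), Ebf1 (-0.06 ± 0.09, adjusted p = 0.718) and Il7r (-0.15 ± 0.07, adjusted p = 0.225), which set or mark B-lineage identity, were not called. The surrogate light chain gene Vpreb1 was not called either (-0.07 ± 0.17, adjusted p = 0.819), whereas Igll1, its partner, had wild type values of 810.6 and 663 and ZnF4 values of 1124.8 and 1005.9 RPKM (0.54 ± 0.11, adjusted p = 0.0303). The call of Igll1 was lost when any 1 of the 6 libraries was dropped (adjusted p up to 0.316) and without the block on day. Of 29 tested B-lineage transcription factors 3 rose (10.3%, near the 10.9% of all genes) and 7 fell (24.1% against 7.32%), with a median of -0.23. By day the median was -0.363 at day 21 and 0.008 at day 28. With any 1 of the 6 libraries dropped 1 to 5 fell and the median was -0.35 to -0.03, nearest to 0 without the day 21 ZnF4 library. Bach2, a repressor that promotes the pre-B cell programme, had wild type values of 30.8 and 27.8 and ZnF4 values of 14.4 and 13.5 RPKM (-1.02 ± 0.07, adjusted p = 0.0014), a call that held in every alternative. Pou2f2 (Oct-2) fell (-0.77 ± 0.09) and the E-protein gene Tcf4 rose (0.76 ± 0.09). Both of these calls were lost with either wild type library dropped (adjusted p up to 0.0926 and 0.104) and without the day 28 ZnF4 library, that of Pou2f2 also without the one of day 21.

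Genes of pre-B cell receptor signalling split. Of 31 tested members 6 rose (19.4% against 10.9% of all genes) and 9 fell (29% against 7.32%). Fewer were called in each direction with any 1 of the 6 libraries left out. The Src-family kinase gene Blk had wild type values of 71.3 and 67.4 and ZnF4 values of 3.7 and 12.4 RPKM (-3.15 ± 0.43, adjusted p = 0.00911; up to 0.129 without either wild type library). Sykb, the table's symbol for the Syk kinase gene, had wild type values of 108.7 and 104 and ZnF4 values of 63.4 and 57.2 RPKM (-0.81 ± 0.07, adjusted p = 0.00233; up to 0.0595 without either wild type library). Dok3, an inhibitory adaptor, had wild type values of 25.2 and 30.8 and ZnF4 values of 5.5 and 4.5 RPKM (-2.27 ± 0.26, adjusted p = 0.00579), with the call lost with either wild type library dropped or the day 28 ZnF4 library (adjusted p up to 0.0958). Thus both positive and inhibitory members fell. Ptpn6 (SHP-1), an inhibitory phosphatase, rose from 68.5 and 73.9 RPKM in wild type to 114.7 and 109.5 RPKM in the mutant (0.65 ± 0.08, adjusted p = 0.00678; up to 0.106 without any 1 of the 4 libraries).

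Of 15 tested genes of recombination and end joining 2 rose (13.3%, near the 10.9% of all genes) and 3 fell (20% against 7.32%), with a median of 0.06, and 0 to 2 were higher and 0 to 3 lower when any 1 of the 6 libraries was dropped. Rag1, of the V(D)J recombinase, had wild type values of 11.6 and 9.2 and ZnF4 values of 49.6 and 44.3 RPKM (2.08 ± 0.25, adjusted p = 0.00596). Rag2, its partner, had wild type values of 9.2 and 7.5 and ZnF4 values of 20.6 and 15 RPKM (adjusted p = 0.00268). Dntt, the terminal transferase that adds bases at the joints, had wild type values of 118.8 and 106.7 and ZnF4 values of 36.7 and 18.6 RPKM (-2.06 ± 0.21, adjusted p = 0.00396). Both recombinase genes were higher in the mutant on both days, and the transferase gene was lower. Without the filter on low values 1 of the 15 pro-B markers, which include these genes, was called higher and 0 lower. Dntt was thus not called in that run. Xrcc6 (Ku70) of the end-joining machinery fell (-0.61 ± 0.07, adjusted p = 0.00594). The calls of Rag1 and Xrcc6 were lost when any 1 of the 4 libraries was dropped (adjusted p up to 0.0987 and 0.102). That of Rag2 was lost without either ZnF4 library or the day 21 wild type library (up to 0.057), and that of Dntt without either wild type library (up to 0.0709).

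Among 23 tested cytokine receptor genes 8 fell (34.8% against 7.32% of all genes) and 1 rose, Kit, with 2 to 6 lower with any 1 library left out. Besides Il2ra, the interferon gamma receptor gene Ifngr1 had wild type values of 73.9 and 75 and ZnF4 values of 35.6 and 35.8 RPKM (-1.04 ± 0.07, adjusted p = 0.00121), with a call that held in every alternative. Csf2rb, the common beta chain of the receptors for interleukin 3 and GM-CSF, had wild type values of 30.5 and 36.5 and ZnF4 values of 14.6 and 13.4 RPKM (-1.20 ± 0.12, adjusted p = 0.00343; up to 0.0688 without either ZnF4 library). STAT5, the transcription factor downstream of these receptors and of BCR-ABL, has known targets that feed back on it. Of 22 tested genes of that list 8 fell (36.4% against 7.32% of all genes), 1 rose, and the median was -0.31. Socs1, a feedback inhibitor of JAK kinases, had wild type values of 6.4 and 9.9 and ZnF4 values of 1.3 and 1.9 RPKM (-1.80 ± 0.12, adjusted p = 0.0014). Pim1, a survival kinase, had wild type values of 116.9 and 154.9 and ZnF4 values of 59.5 and 70.1 RPKM (-1.05 ± 0.09, adjusted p = 0.00263; up to 0.0609 without either ZnF4 library or the day 28 wild type library). Stat5a itself had wild type values of 11 and 9.8 and ZnF4 values of 6.2 and 6.5 RPKM (-0.63 ± 0.09, adjusted p = 0.0112; up to 0.137 without any 1 of the 4 libraries). Both lists hold Il2ra. With any 1 of the 6 libraries left out 2 to 5 of the STAT5 genes were lower, and without the block on day 5.

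Among genes that p53 is known to activate, some fell. Of 29 tested 12 fell (41.4% against 7.32% of all genes) and 2 rose, with a median of -0.26, and 1 to 7 were lower with any 1 library left out. Cdkn1a (p21), a cell cycle inhibitor, had wild type values of 162.8 and 154.1 and ZnF4 values of 63.1 and 70.7 RPKM (-1.23 ± 0.10, adjusted p = 0.00245). Trp53inp1, a p53 cofactor, had wild type values of 42.5 and 48.6 and ZnF4 values of 20.6 and 19.4 RPKM (-1.15 ± 0.09, adjusted p = 0.00223). Zmat3, an RNA-binding p53 target, had wild type values of 37.1 and 39.8 and ZnF4 values of 18.3 and 22.3 RPKM (-0.89 ± 0.09, adjusted p = 0.00377). Every mutant value of these genes lay below every wild type value. Eda2r, a receptor of the tumour necrosis factor family, fell from a low level, 1.7 and 2.8 RPKM, to 0.4 and 0.5 RPKM (-1.14 ± 0.13, adjusted p = 0.00595). These calls were lost without either ZnF4 library for Cdkn1a (up to 0.0596), without the day 28 wild type library for Trp53inp1 (0.0563), without either wild type library for Zmat3 (up to 0.0747), and without either ZnF4 library or the day 28 wild type library for Eda2r (up to 0.0801).

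A cell cycle brake fell and a cyclin rose. Cdkn2a, the locus of p16 and p19Arf, had wild type values of 25.2 and 40.2 and ZnF4 values of 10.4 and 17.3 RPKM (-1.19 ± 0.11, adjusted p = 0.00273). In both genotypes it was higher at day 28. The call was lost when any 1 of the 4 libraries was dropped (adjusted p up to 0.0635) and without the block on day. Ccnd1, which encodes cyclin D1, had wild type values of 5.7 and 4.9 and ZnF4 values of 31.5 and 33.2 RPKM (2.41 ± 0.09, adjusted p = 0.000537) and held in every alternative. Ccnd2 (-0.52 ± 0.17, adjusted p = 0.0972) and Myc (0.52 ± 0.15, adjusted p = 0.0752) were not called. Mxd4, a partner of Max that opposes Myc, had wild type values of 20.4 and 21.9 and ZnF4 values of 6.8 and 8.4 RPKM (-1.37 ± 0.10, adjusted p = 0.00157; 0.0513 without the day 28 ZnF4 library). Replication and mitosis genes had small and mostly positive differences. Among 37 tested replication genes 36 had a positive difference and 8 were called (21.6% against 10.9%), with a median of 0.21. Among 30 mitosis genes all were positive and 8 were called (26.7% against 10.9%), with a median of 0.25. Over all tested genes 53.2% had a positive difference. Examples are Cdt1, a licensing factor (0.47 ± 0.07), and Aurkb, the Aurora B kinase gene (0.38 ± 0.06). With any 1 of the 6 libraries left out, 0 to 1 replication and 0 to 1 mitosis genes were called, and Cdt1 lost its call when any 1 of the 4 libraries was dropped (adjusted p up to 0.133) and without the block on day. That of Aurkb was lost without any 1 of the 6 (up to 0.184).

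Many genes of amino acid supply rose. ATF4 is the transcription factor of the amino acid response: it is made when uncharged tRNA or other stress slows translation, and it induces amino acid transporters, synthesis enzymes and aminoacyl-tRNA synthetases. Of 35 tested genes 26 rose (74.3% against 10.9% of all genes) and 0 fell, with a median of 0.52. Slc7a3, a transporter of cationic amino acids, had wild type values of 0.1 and 0.2 and ZnF4 values of 3 and 3.7 RPKM (1.92 ± 0.11, adjusted p = 0.00101). Atf5, a related factor and ATF4 target, had wild type values of 7.8 and 12.8 and ZnF4 values of 20.6 and 33.8 RPKM (1.31 ± 0.07, adjusted p = 0.00103). Vldlr, a lipoprotein receptor and ATF4 target, had wild type values of 0.2 and 0.1 and ZnF4 values of 2.6 and 2.3 RPKM (1.58 ± 0.10, adjusted p = 0.00114). Mutant and wild type did not overlap in these genes, although Atf5 was higher at day 28 in both genotypes. Trib3, a pseudokinase that feeds back on ATF4, had wild type values of 5.4 and 10.3 and ZnF4 values of 24.3 and 30.8 RPKM (1.74 ± 0.15, adjusted p = 0.00233; up to 0.0575 without either ZnF4 library). Among the 9 members that were not called were Atf3 (0.11 ± 0.21, adjusted p = 0.776) and Cebpb (-0.40 ± 0.22, adjusted p = 0.275), chosen after their values were seen. The count depends on the block: without it 7 genes were called, Atf5 not among them (adjusted p up to 0.0672 over the alternatives that keep every library), and with any 1 of the 6 libraries left out 5 to 20. The median kept its sign in each alternative run.

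**Figure D3:**
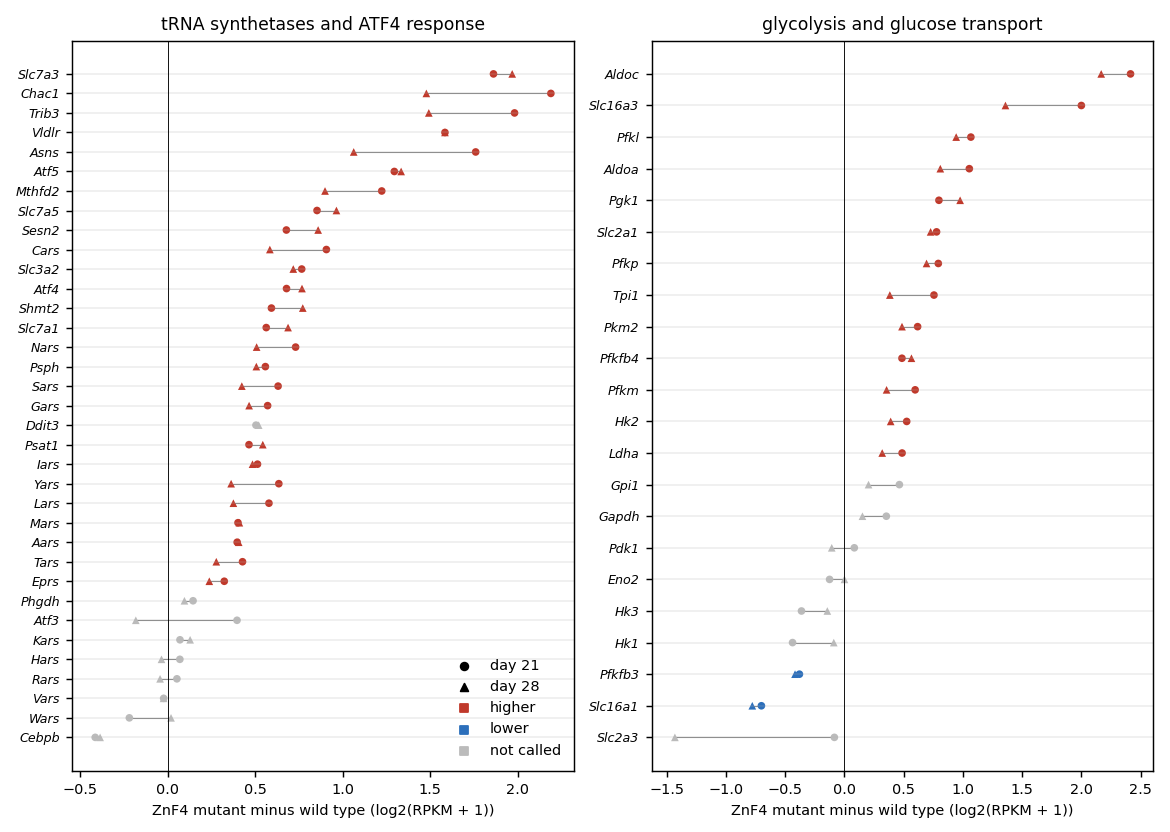
Difference between the ZnF4 mutant and wild type of each tested member of 2 lists, amino acid supply (left) and glycolysis (right), at day 21 (circles) and day 28 (triangles), in log2(RPKM + 1). Grey lines join the days of a gene, and colour gives the call over both days. The 26 called genes on the left and 13 on the right lie above 0 on both days, and Pfkfb3 and Slc16a1 are the 2 called genes below 0.

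The amino acid response element bound by ATF4 and its partners was searched as TGATGNAA on both strands in the same windows. It was in 10 of the 29 windows of this list (34.5%), against 2.31% of the windows of all tested genes. The list was built from known targets of this factor, so the share is a property of the list. Matches before the start are printed with the element in capitals (RefSeq, GRCm38.p6), except for windows on a chromosome that was left out of this step. Of these genes 6 rose, by 1.83 ± 0.18 for Chac1, 1.58 ± 0.10 for Vldlr, 1.41 ± 0.17 for Asns, 0.52 ± 0.07 for Gars, 0.40 ± 0.06 for Aars and 0.35 ± 0.08 for Tars, and Atf3 was not called. Chac1 degrades glutathione, Asns makes asparagine, and Gars, Aars and Tars charge tRNAs with glycine, alanine and threonine. The positions are chr2:119351023-119351082 (plus) for Chac1, chr19:27216794-27216853 (plus) for Vldlr, chr6:7693210-7693258 (minus) for Asns, chr6:55037945-55038000 (plus) for Gars, chr8:111033704-111033763 (plus) for Aars, chr15:11399659-11399699 (minus) for Tars and chr1:191183410-191183469 (minus) for Atf3. The genes other than Vldlr were chosen for the match after their values were seen.
Chac1: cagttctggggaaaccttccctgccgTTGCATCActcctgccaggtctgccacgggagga
Vldlr: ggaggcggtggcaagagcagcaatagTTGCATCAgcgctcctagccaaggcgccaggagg
Asns: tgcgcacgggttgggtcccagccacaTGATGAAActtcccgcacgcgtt
Gars: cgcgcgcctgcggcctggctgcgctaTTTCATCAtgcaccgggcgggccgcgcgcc
Aars: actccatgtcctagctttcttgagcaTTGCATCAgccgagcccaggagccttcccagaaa
Tars: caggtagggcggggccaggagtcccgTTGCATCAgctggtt
Atf3: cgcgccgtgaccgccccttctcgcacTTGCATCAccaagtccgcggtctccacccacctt

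Genes of glucose use rose too. Of 22 tested genes of glycolysis and glucose transport 13 rose (59.1% against 10.9% of all genes) and 2 fell, with a median of 0.47. Fewer were higher with any 1 library left out. Aldoc, an aldolase isoform, had wild type values of 7.1 and 5.7 and ZnF4 values of 42.2 and 29.1 RPKM (2.29 ± 0.14, adjusted p = 0.00114). Pfkl, the liver-type phosphofructokinase, had wild type values of 31.5 and 31.4 and ZnF4 values of 67.1 and 61.3 RPKM (1.01 ± 0.07, adjusted p = 0.00144). Slc2a1 (GLUT1), the main glucose transporter of lymphocytes, had wild type values of 22.8 and 20.2 and ZnF4 values of 39.8 and 34.1 RPKM (0.75 ± 0.07, adjusted p = 0.00342). The first pair held in every alternative, and Slc2a1 and Aldoa (0.93 ± 0.09) lost their calls with either wild type library dropped (adjusted p up to 0.0704 and 0.0743). The 2 members that fell (9.09%, near the 7.32% of all genes) were Slc16a1 (-0.74 ± 0.11) and Pfkfb3 (-0.40 ± 0.08). Slc16a1 is a lactate and pyruvate carrier and Pfkfb3 a regulator, and both were chosen after their values were seen.

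Hypoxia response genes overlap with glycolysis, and 15 of 34 tested rose (44.1% against 10.9% of all genes) while 1 fell, with a median of 0.35. Fewer were higher with any 1 library left out. Besides Ndrg1, Efna1, an ephrin ligand induced by hypoxia, had wild type values of 0.3 and 0.4 and ZnF4 values of 19.2 and 9.6 RPKM (3.44 ± 0.25, adjusted p = 0.00158). Bhlhe40, a repressor of the circadian and hypoxia programmes, had wild type values of 4.6 and 4.7 and ZnF4 values of 14.3 and 17.7 RPKM (1.58 ± 0.15, adjusted p = 0.00326; up to 0.0708 without either ZnF4 library or the day 28 wild type library). P4ha2, a prolyl hydroxylase of collagen, had wild type values of 0.9 and 0.7 and ZnF4 values of 4.4 and 3.1 RPKM (1.39 ± 0.17, adjusted p = 0.00674; up to 0.0966 without any 1 of the 4 libraries). The strongest members rose while others usually counted with them were not called, among them Car9 (0.10 ± 0.16, adjusted p = 0.719) and Egln3 (0.12 ± 0.10, adjusted p = 0.448), chosen after their values were seen. The response core ACGTG was in 45.9% of the 37 windows of this list and 53.3% of the 30 windows of the glycolysis list, against 25.8% of all. It was in 17.3% of the windows of genes 2-fold higher on both days and 15.8% of those 2-fold lower. The hypoxia list was built from known targets and shares genes with the glycolysis list, so these shares are a property of the lists. The stretches of 2 members that rose, with the core in capitals (RefSeq, GRCm38.p6, plus strand), are shown at chr4:119108683-119108739 for Slc2a1 and chr11:54100820-54100876 for P4ha2.
Slc2a1: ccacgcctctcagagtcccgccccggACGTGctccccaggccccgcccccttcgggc
P4ha2: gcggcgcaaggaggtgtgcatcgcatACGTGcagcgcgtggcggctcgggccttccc

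Fewer genes of lipid synthesis rose. Of 28 tested genes of cholesterol and fatty acid synthesis 7 rose (25% against 10.9% of all genes) and 0 fell, with a median of 0.30. Far fewer were called with any 1 library left out. Fads2, a fatty acid desaturase, had wild type values of 32 and 43.1 and ZnF4 values of 91 and 93.8 RPKM (1.29 ± 0.12, adjusted p = 0.00281; up to 0.0616 without either wild type library). Its neighbour in the pathway, Fads1, had wild type values of 27.1 and 35.9 and ZnF4 values of 49.3 and 54.9 RPKM (0.72 ± 0.08, adjusted p = 0.00571; up to 0.0807 without any 1 of the 4 libraries). By contrast no gene was called among 50 cytosolic ribosomal proteins (median -0.04) or 41 genes of oxidative phosphorylation (median -0.01). At an unadjusted p below 0.05 limma gave 1 and 3 genes there.

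Guidance and adhesion genes moved in both directions. Of 20 tested ephrins, semaphorins and their receptors 9 rose and 2 fell, with 3 to 8 higher with any 1 library left out. Of the 40 matched members 20 were too low to be tested, so a share of the tested members depends on the filter. Plxnb2, a semaphorin receptor, had wild type values of 6.3 and 3.8 and ZnF4 values of 24.6 and 24.4 RPKM (2.11 ± 0.15, adjusted p = 0.00157). Sema4a, a lymphocyte semaphorin, went down, with wild type values of 40.6 and 43.2 and ZnF4 values of 19.2 and 18.2 RPKM (-1.12 ± 0.10, adjusted p = 0.00266; up to 0.0605 without either wild type library). Of 33 integrin and focal adhesion genes 9 rose (27.3% against 10.9% of all genes) and 6 fell (18.2% against 7.32%), with 3 to 7 higher and 0 to 4 lower when any 1 library was dropped. Ctnnd1 (p120 catenin) had wild type values of 14.8 and 14.5 and ZnF4 values of 52.5 and 54.7 RPKM (1.80 ± 0.07, adjusted p = 0.000537). Actn1, an actin crosslinker of focal adhesions, had wild type values of 9.1 and 9.4 and ZnF4 values of 24 and 28.5 RPKM (1.41 ± 0.10, adjusted p = 0.00152). Itgb1, the beta1 integrin, had wild type values of 38.3 and 35.5 and ZnF4 values of 67.2 and 66 RPKM (0.84 ± 0.07, adjusted p = 0.00245; 0.0572 without the day 28 wild type library). Of 16 ERK feedback genes 4 rose (25% against 10.9%) and 0 fell, with 1 to 4 higher when any 1 library was dropped. Dusp4, a phosphatase that inactivates ERK, had wild type values of 1.5 and 2.1 and ZnF4 values of 6.5 and 7.5 RPKM (1.52 ± 0.10, adjusted p = 0.00129). Spry4, a Sprouty inhibitor, had wild type values of 1.4 and 1.8 and ZnF4 values of 4.7 and 7.2 RPKM (1.40 ± 0.15, adjusted p = 0.00431; up to 0.0745 with either wild type library dropped or the day 28 ZnF4 library). The calls of Plxnb2, Ctnnd1, Actn1 and Dusp4 held in every alternative.

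Macrophage transcripts were present in all libraries and were lower in the mutant. Summed over the 19 matched markers, their level was 591.6 and 372.7 in wild type and 261.9 and 309.4 in the ZnF4 mutant, in RPKM, and none of them was at 0 throughout these libraries. Of 17 tested 9 fell (52.9% against 7.32% of all genes), 0 rose, and the median was -0.73. The median was -1.07 at day 21 and -0.37 at day 28. With any 1 of the 6 libraries left out 0 to 4 were lower, 0 to 1 higher and the median -1.05 to -0.42. The 1 higher call came without the day 21 ZnF4 library, and without the filter on low values none was called. The complement gene C1qb had wild type values of 54.4 and 38.3 and ZnF4 values of 19.3 and 20.8 RPKM (-1.15 ± 0.15, adjusted p = 0.00835; up to 0.0954 without either ZnF4 library or the day 21 wild type library). Stromal and endothelial markers summed to 132.3 and 94.5 in wild type and 79.5 and 79.4 in the ZnF4 mutant, with 6 of 17 lower (35.3% against 7.32%) and 1 to 3 when any 1 library was dropped. Pecam1, which B-lineage cells carry too, had wild type values of 25 and 26.1 and ZnF4 values of 13.4 and 12.2 RPKM (-0.95 ± 0.08, adjusted p = 0.0022; 0.0538 without the day 28 wild type library). Fewer cells of a type and less RNA per cell cannot be told apart in these bulk samples. Granulocyte markers summed to at most 2.5 RPKM in the 4 libraries, with 4 of 11 at 0 in all of them, and those of mast cells to at most 0.7.

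**Figure D4:**
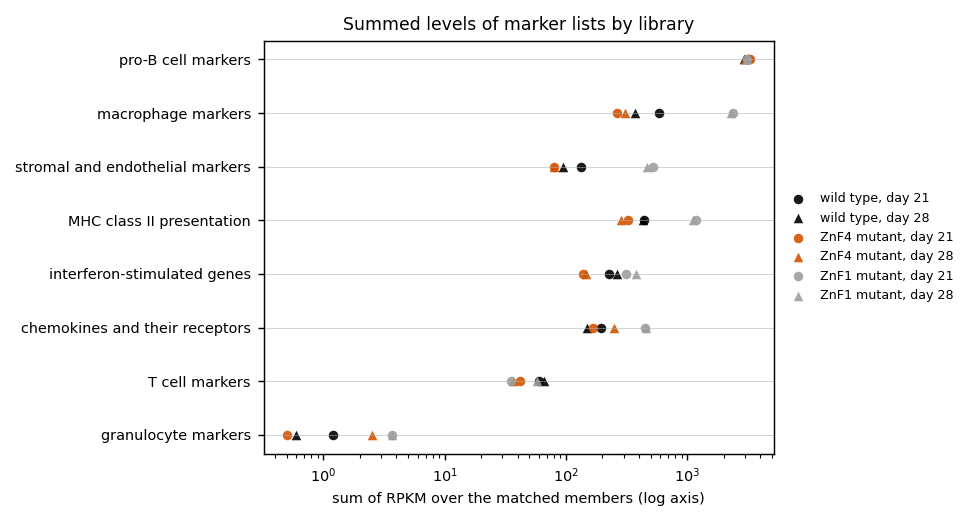
Sum of RPKM over the matched members of 8 gene lists (log axis) in each library, with colours and symbols for genotype and day. Pro-B markers overlap across genotypes, and macrophage markers lie at 261.9 and 309.4 in the ZnF4 mutant, 591.6 and 372.7 in wild type and 2392.4 and 2291.8 in the ZnF1 mutant.

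Some antigen presentation and interferon genes fell, and the part of the macrophage markers in this was not tested. Of 18 tested MHC class II genes 4 fell (22.2% against 7.32% of all genes) and 0 rose, with 1 to 3 lower when any 1 library was dropped. Cd74, the invariant chain, had wild type values of 90.1 and 124.6 and ZnF4 values of 17.4 and 21.6 RPKM (-2.39 ± 0.18, adjusted p = 0.00181; up to 0.0576 without either ZnF4 library). H2-Ob, a B cell modulator of peptide loading, had wild type values of 24.5 and 22.5 and ZnF4 values of 12.5 and 9.8 RPKM (-1.02 ± 0.08, adjusted p = 0.00207; 0.0538 without the day 28 wild type library). The class II chain genes H2-Aa (0.46 ± 0.22, adjusted p = 0.215) and H2-Ab1 (0.08 ± 0.23, adjusted p = 0.851), chosen after their values were seen, were not called. In the class I list the difference was negative for all 16 tested genes, against 5297 of all 11379 tested genes. Of the 16 genes 6 fell (37.5% against 7.32%), with a median of -0.39. Nlrc5, the activator of class I genes, had wild type values of 20.9 and 20 and ZnF4 values of 8 and 12.3 RPKM (-0.97 ± 0.16, adjusted p = 0.0153), and its call was lost without either wild type or either ZnF1 library or the day 21 ZnF4 library (adjusted p up to 0.158). With any 1 library left out 0 to 2 class I genes were called.

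Of 23 tested interferon-stimulated genes 5 fell (21.7% against 7.32% of all genes) and 1 rose, with a median of -0.30. With any 1 of the 6 libraries dropped 2 to 4 fell and the median was -0.40 to -0.06, nearest to 0 without the day 21 wild type library. The guanylate-binding protein genes on chromosome 3 stood out: Gbp2 had wild type values of 58.4 and 90.9 and ZnF4 values of 10.7 and 8.8 RPKM (-2.79 ± 0.20, adjusted p = 0.00167) and Gbp3 had wild type values of 37.8 and 49.5 and ZnF4 values of 13.4 and 12.6 RPKM (-1.66 ± 0.12, adjusted p = 0.00158), and both calls held in every alternative. Classical type I interferon targets such as Isg15 (-0.04 ± 0.14, adjusted p = 0.856) and Rsad2 (-0.06 ± 0.17, adjusted p = 0.836), chosen after their values were seen, were not called. Ddx58 (RIG-I), a sensor of viral RNA, fell (-0.98 ± 0.09, adjusted p = 0.00312; up to 0.0623 with either wild type library dropped or the day 28 ZnF4 library). Among 19 chemokine genes and receptors 4 fell (21.1% against 7.32%) and 1 rose, Ccl2, with fewer lower when any 1 library was dropped. The homing receptor gene Cxcr5 had wild type values of 26.1 and 17.6 and ZnF4 values of 1.9 and 4.6 RPKM (-2.48 ± 0.46, adjusted p = 0.0221), with its call lost without either ZnF4 library or the day 21 wild type library (adjusted p up to 0.178).

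**Figure D5:**
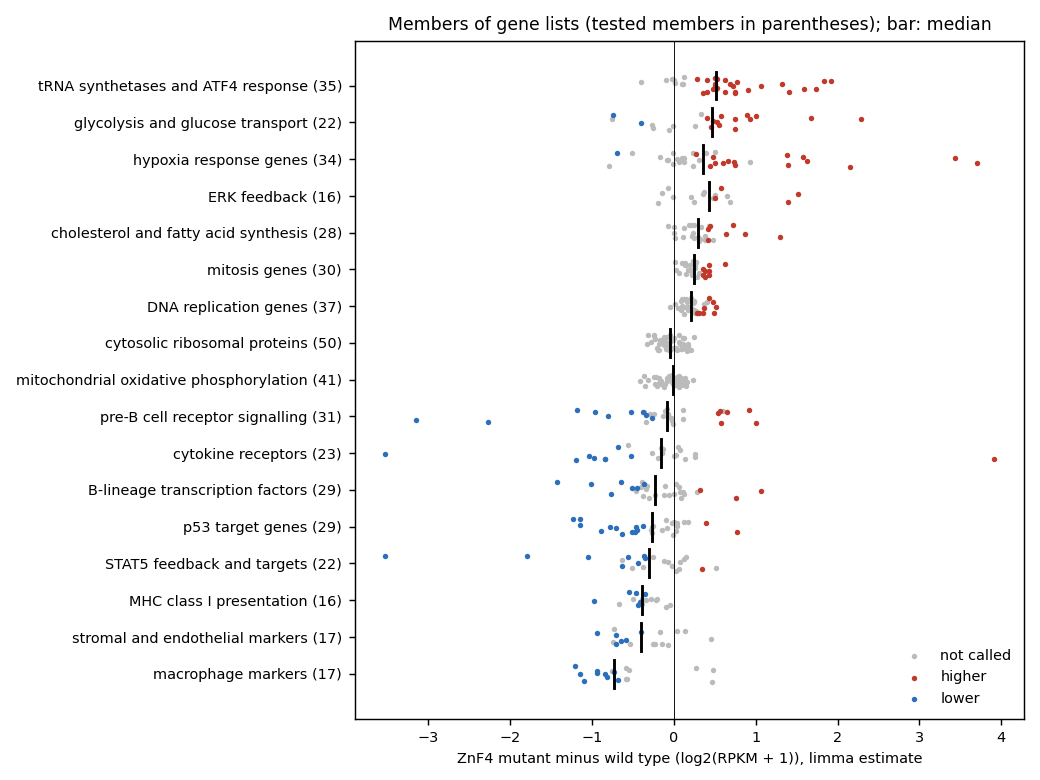
Differences between the ZnF4 mutant and wild type of the tested members of 17 gene lists, in log2(RPKM + 1), as fitted over both days. Each point is a gene, red where called higher and blue where called lower, and the black bar is the median of the list. The bars run from 0.52 for amino acid supply to -0.73 for macrophage markers, with the ribosomal protein and oxidative phosphorylation lists at about 0.

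Counted in either direction, chromatin genes were called at shares near the 18.2% of all genes or below. Chd3 (Mi-2alpha), a remodeller of the NuRD complex, rose from 23.7 and 19.5 RPKM in wild type to 41.2 and 36.9 RPKM in the mutant (0.83 ± 0.07, adjusted p = 0.00254; up to 0.0564 without the library of day 28 of either genotype). It was the 1 called gene among 13 tested NuRD subunits (7.69% against 10.9% higher over all genes). Of 24 Polycomb genes 4 rose (16.7% against 10.9% of all genes) and 0 fell (against 7.32%). An example is Cbx2 (0.46 ± 0.08), with 0 to 1 called with any 1 library left out (up to 0.174 for Cbx2). In the Bcl2 family 3 of 13 genes fell (23.1% against 7.32% of all genes) and 1 rose, with fewer lower when any 1 library was dropped. Bid, which links death receptors to mitochondria, had wild type values of 39.8 and 42 and ZnF4 values of 23.1 and 24.5 RPKM (-0.76 ± 0.06, adjusted p = 0.00243; up to 0.057 without either wild type library). The survival gene Bcl2 fell from 4.4 and 4.3 RPKM to 2 and 2.1 RPKM (-0.81 ± 0.12, adjusted p = 0.012; up to 0.139 without any 1 of the 4 libraries). The linker histone gene H1f0 rose from 16.6 and 20.9 RPKM to 54.1 and 42.3 RPKM (1.31 ± 0.20, adjusted p = 0.0121; up to 0.157 without either wild type library). Notch1 fell (-0.68 ± 0.07) and Notch2 rose (0.93 ± 0.14), and the calls were lost with either wild type library dropped or the day 28 ZnF4 library, that of Notch1 also without the day 21 ZnF4 library (adjusted p up to 0.0866 and 0.128).

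Against the mutant of the first finger the ZnF4 mutant differed in 5177 genes (45.5%), 2540 higher (22.3%) and 2637 lower (23.2%). This comparison shares the ZnF4 libraries with the one above, so the values are set side by side. Igf2, Kit and Hoxb8 were higher in the ZnF4 mutant than in the ZnF1 mutant, by 4.90 ± 0.14, adjusted p = 0.000376, by 2.31 ± 0.11, adjusted p = 0.000406 and by 2.73 ± 0.14, adjusted p = 0.000406 in that order. The ZnF1 libraries had 6.1 and 5.9 RPKM of Igf2 and 2.6 and 1.8 RPKM of Kit. Both values lie between wild type and the ZnF4 mutant. Lhx2 went the other way, with 54.4 and 47 RPKM in the ZnF1 mutant (-1.95 ± 0.14, adjusted p = 0.000594). Against wild type, H19 (2.46 ± 0.69) and Igf2 (2.29 ± 0.14) were also called higher in the ZnF1 mutant. So were 9 of the 11 tested Hox genes and cofactors, with 0 lower. Between the mutants 5 of these 11 were higher in the ZnF4 mutant and 3 lower, with a median of 0.234. Of the amino acid supply list 31 of 35 genes were higher in the ZnF4 than in the ZnF1 mutant and 2 lower, and of the replication and mitosis lists 35 of 37 and 30 of 30 were higher. Most genes of these lists were called lower in ZnF1 cells than in wild type. For amino acid supply 24 were lower and 3 higher (median -0.387). For replication 30 were lower (median -0.414), for mitosis 29 (median -0.521), with 0 higher in either list. The medians of ZnF4 minus wild type were 0.518, 0.213 and 0.25 in the same order. For Il2ra, which stayed at 25.1 and 28.8 RPKM in the ZnF1 mutant, the difference between mutants was -3.87 ± 0.23, adjusted p = 0.000489, and for Socs1 it was -2.41 ± 0.12, adjusted p = 0.000407. The ZnF1 libraries held more macrophage transcripts, 2392.4 and 2291.8 RPKM over the same markers, and all 17 tested markers were lower in the ZnF4 mutant. Against wild type, 38.1% of genes were called in the ZnF1 mutant (22.9% higher, 15.2% lower), and 16 of these 17 markers were higher there. The part of these transcripts in the differences between mutants was not tested.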

How the data were processed

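Poly(A) RNA of 6 libraries was sequenced on the Illumina platform. The submitters' processing notes name TopHat, bedtools and mouse build mm9. Versions, the annotation release and read numbers are not given in the sources used here. RPKM values for 26531 RefSeq transcripts were deposited by the authors, rounded to 1 decimal. The depth is unknown, so no counting interval can be given. A stray entry (1 row) was left out.

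For each of 22098 symbols the row with the highest mean was kept. The test took genes that reached 1 RPKM in 2 or more of the 6 libraries, on log2(RPKM + 1), so the change of low genes is understated. In R 4.3.3, limma 3.58.1 modelled all 6 libraries by genotype and day with a variance trend, and p-values were adjusted over all genes by the Benjamini-Hochberg method at 0.05. The 2 residual degrees of freedom were joined by a prior of 3.22. The labels do not say whether the days are separate cultures, so p-values measure the repeatability between these samples. The replicate number is the day that the labels give, so it was kept as a block: day changes correlated across genes between genotypes at 0.226 to 0.433 (Pearson). No pair of libraries was identical, with at most 5.61% of genes at equal values. The steps were also run on simulated data without day effects, which checks the code and not the calls in these data.

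The members and the 48 gene lists (1171 of 1180 entries matched) were chosen with earlier results of these data known. Named genes follow a rule: in each direction, the 25 largest differences of called genes that were 2-fold apart at each day, for every list described the called members with the lowest p (at most 4), a fixed set (among them Ikzf1, Kit, Pax5 and Cdkn1a), and the 5 per direction called oppositely in the mutants. Functionally undescribed genes could be skipped. Some genes that the rule selects are not reported here. Alternatives were no block, a pseudocount of 0.1, other filters and scalings, summed rows, 4 libraries only and each library left out. Gene order and promoter sequences come from RefSeq, GRCm38.p6, another build than that of the values, with windows for 8033 of the 11379 tested genes.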

Additional observations from a re-analysis of the deposited data

Results flagged for a closer look

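In these 9 genes both mutants were called against wild type but in opposite directions, and the mutants also differed when compared directly. They are taken from the 5 such genes per direction with the largest difference between the mutants. Other genes were called oppositely too, among them Lsp1 and Cars, and the total is not given here. The first group was higher in the ZnF4 mutant than in wild type. Fetub, a fetuin, had wild type values of 6.4 and 8.9 and ZnF4 values of 14.7 and 40.9 RPKM, against 0.3 and 0.8 RPKM in the ZnF1 mutant, a difference between the mutants of 4.07. Tnni2 differed by 3.85, with 1.4 and 2.2 RPKM in the ZnF1 mutant. Tac4, a tachykinin gene, differed by 3.53, with 1.6 and 3 RPKM in the ZnF1 mutant. Rbpms, an RNA-binding protein gene, differed by 3.02, with wild type values of 3.6 and 2.6 and ZnF4 values of 19.9 and 17.2 RPKM, and ZnF1 values of 1.4 and 1.4 RPKM. Filip1 differed by 2.65, with wild type values of 1 and 1.6 and ZnF4 values of 6.4 and 5.4 RPKM, and ZnF1 values of 0 and 0.2 RPKM.

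The other genes were lower in the ZnF4 mutant and higher in the ZnF1 mutant than in wild type. Cd74 had 480.9 and 396.8 RPKM in the ZnF1 mutant, a difference between the mutants of -4.42. Nov, a matricellular protein gene, had wild type values of 23.3 and 19.2 and ZnF4 values of 4.9 and 4.3 RPKM, and ZnF1 values of 126 and 97.4 RPKM (-4.32). Apoe, the apolipoprotein of macrophages, had wild type values of 49 and 31.4 and ZnF4 values of 12.2 and 13 RPKM, and ZnF1 values of 262.2 and 175.7 RPKM (-3.99). Mir5107, a hairpin in poly(A) RNA, had wild type values of 10.9 and 15.6 and ZnF4 values of 2.4 and 2.3 RPKM, and ZnF1 values of 53.6 and 50.1 RPKM (-3.98). Macrophage markers summed to 591.6 and 372.7 in wild type and 261.9 and 309.4 in the ZnF4 mutant and to 2392.4 and 2291.8 RPKM in the ZnF1 mutant, and their part in these differences was not tested. Against wild type, the ZnF4 calls of Tnni2, Tac4, Rbpms and Nov held in every alternative. Those of Apoe, Fetub, Cd74, Filip1 and Mir5107 were lost with 1 library left out (adjusted p up to 0.0909, 0.161, 0.0576, 0.0616 and 0.0581). The call of Fetub was also lost without the block on day, and those of Fetub and Apoe without the filter on low values.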

How the results depend on the processing

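Of the 188 genes that the naming rule selects, 181 were called, 62 of them in every alternative and 49 others lost the call only with 1 library left out. Against wild type, 2076 genes were called (1243 higher, 833 lower), and between the mutants 5177. Without the replicate block 1687 were called against wild type (1000 higher, 687 lower), and 4632 between the mutants. The count against wild type was 1137 without the filter on low values (700 higher, 437 lower) and 1231 with the wild type and ZnF4 libraries only (706 higher, 525 lower). With 1 library left out it ranged from 346 to 1230 (203 to 707 higher, 143 to 523 lower), and between the mutants from 2526 to 3896, with 2526 and 2632 without 1 ZnF1 library. Fewer residual degrees of freedom remain in these fits. The other alternatives kept the counts within 1.5 times. Genes 2-fold apart on both days (290 higher, 203 lower) became 458 and 330 with a pseudocount of 0.1, and 160 higher with a mean RPKM of at least 4. These 2-fold counts could not be taken with a library left out. With 1 library left out, the difference of Ebf1 ranged from -0.16 to 0.0488 and turned positive without the ZnF4 library of day 21, and that of Vpreb1 ranged from -0.36 to 0.22 and turned positive without the ZnF4 library of day 28, neither of them called. Without the block the count of p53 targets that fell went from 12 to 8, of hypoxia genes that rose from 15 to 11 and of amino acid supply genes from 26 to 7; the cause was not tested. Values rounded to 0.1 RPKM limit the differences of genes near 0, and with unknown depth their counting error cannot be given.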
